A study of Mus musculus with 4 samples.

Results

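The small leucine-rich proteoglycans (SLRPs) were followed in mouse tail tip fibroblasts with and without an autosomal *Xist* transgene. The family was taken by name as 9 genes, *Dcn*, *Bgn*, *Lum*, *Fmod*, *Ogn*, *Prelp*, *Aspn*, *Omd* and *Podn*, and all 9 were listed among the 23924 genes of the expression matrix. SLRPs are secreted proteins built on a core of leucine-rich repeats, most of which carry chondroitin, dermatan or keratan sulfate chains. They bind fibrillar collagens and set how collagen fibrils assemble and space themselves in skin and tendon, and several of them hold TGF-β and related ligands in the matrix. In dermal fibroblasts, decorin (*Dcn*) and lumican (*Lum*) are known as abundant products and are used as markers of the cell type.

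The fibroblasts came from male littermates of the C57BL/6J-TgBAC8-2087 line, either transgenic (Tg2087/+, TG) or wildtype (+/+, WT). In TG cells an X-inactivation center (*Xic*) transgene, TgBAC8, sits at a single autosomal locus that the study places on Chr 1, and its *Xist* is driven by the native promoter. Cells of both genotypes were immortalized with SV40 large T and were tetraploid, so these features are shared by all groups. Polyadenylated RNA was sequenced from 2 libraries per genotype, WT 1, WT 2, TG 1 and TG 2, and it is not stated if each library had its own animal. The p-values therefore measure the spread between these libraries, which may be technical.

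Expression is given as FPKM, which scales the fragments on a gene to its length and to library size, so levels of different genes can be compared per length. Depth ranged from 9465712 reads in WT 1 to 14639946 in WT 2, and the reads behind each FPKM value were worked out from the ratios between libraries. *Xist* followed the genotype labels, at 0 and 0.108 FPKM in WT against 2.31 and 2.28 in TG. The fibroblast label was checked with 10 markers, each detected in 1 library or more, and *Vim*, *Thy1*, *Col1a1* and *S100a4* stood between 407 and 2547 FPKM in every library. The markers *Fap*, at 0 to 0.0802 FPKM, *Pdgfra*, at 0.0999 to 1.13, and *Dpt*, at 0.429 to 1.735, were low or at 0. So were *Dcn* and *Lum* below. Markers of keratinocytes and endothelial cells summed to at most 0.718 FPKM in any library, with *Krt5* and *Krt14* at 0 in all 4.

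TG was compared with WT by limma on log2(FPKM + 0.5). The test took in the 11524 genes whose mean reached 0.5 FPKM, and p-values were adjusted over all of them by Benjamini-Hochberg. To be called, a gene needed an adjusted p under 0.01 together with a log2 fold change of 1 or more in either direction, the thresholds that the study used. The pseudocount of 0.5 makes fold changes of genes near or below that level look smaller than they are. Of the 9 SLRPs, 7 were tested and 2, *Dcn* and *Lum*, had a mean FPKM below the minimum. limma called 0 of the 7 lower in TG, where 0.469% of all tested genes were called, and 0 higher, where 0.607% were. *Xist* itself, with a log2 fold change of 2.34, had an adjusted p of 0.0112 (limma) and was not called. The thresholds can thus miss a known difference in a gene of low level. At an unadjusted p under 0.05 stood 1 of the 7, *Aspn*, against 19.6% of all tested genes, and voom on the recovered reads, which called 1.31% of all tested genes lower and 1.07% higher, called *Aspn* lower and 0 SLRPs higher. At an adjusted p under 0.05 (limma), *Aspn* was the 1 SLRP lower in TG and 0 were higher, where 1.54% and 2.59% of all tested genes were, or 1.05% and 1.99% with the fold minimum kept.

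The levels of the family were far apart. Biglycan (*Bgn*) stood alone at the top, with a mean of 843 FPKM over the 4 libraries, the rank of 63 in the whole matrix. *Aspn* followed with a mean of 28.5 FPKM and *Ogn* with 12.1. Over all 4 libraries *Aspn* ranged from 13.6 to 40.9 FPKM and *Ogn* from 8.01 to 19.3, so these neighbours in the order overlapped. Both lay apart within WT and nearly met in TG 1. *Fmod*, *Podn*, *Omd* and *Prelp* had means of 1.39, 0.795, 0.622 and 0.543 FPKM, and the ranges of each neighbouring pair overlapped. *Dcn* and *Lum* came last. *Bgn* alone made up 93.8% of the summed SLRP FPKM in WT 1 and 94.8% in WT 2, and 95.4% in TG 1 and 96.3% in TG 2. Without *Bgn*, the others summed to 50.9 and 56.5 FPKM in WT and to 43.4 and 26.2 FPKM in TG, with both TG sums below both WT sums. *Aspn* was the largest part of each of these sums, at 39.8 and 40.9 FPKM in WT and 19.8 and 13.6 in TG. The lower TG sums rested on *Aspn*, since *Ogn*, the next in level, overlapped between genotypes. Of all tested genes, 20.3% had both TG libraries below WT.

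**Figure D1:**
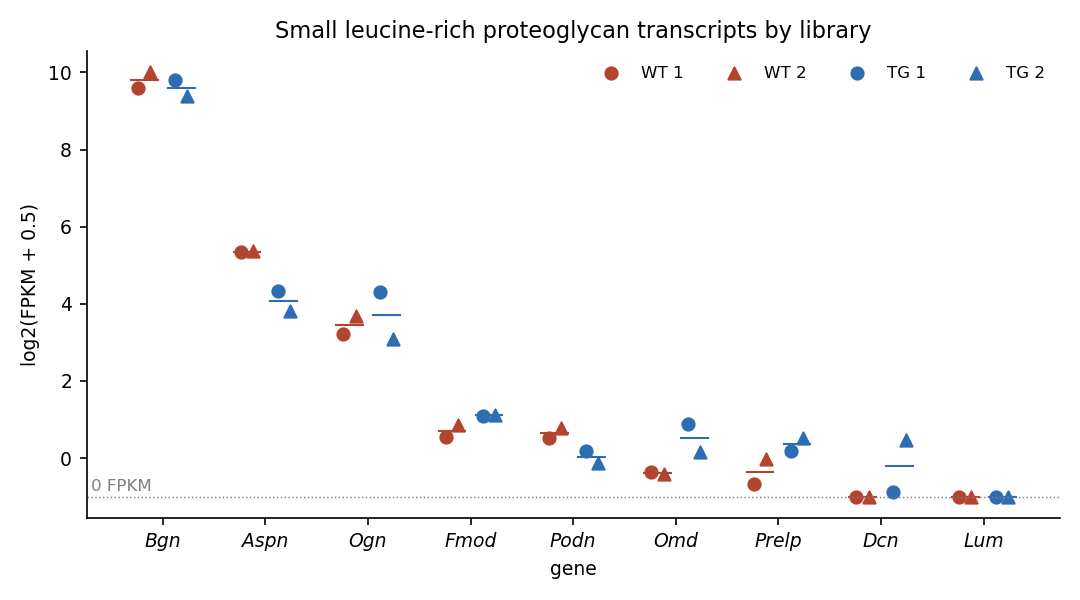
FPKM of the 9 SLRP genes on a log2(FPKM + 0.5) axis, with 1 point per library (red, WT; blue, TG; circles, replicate 1; triangles, replicate 2), a bar at the mean of each genotype on that axis and a dotted line at 0 FPKM. *Bgn* lies far above the rest, both TG points of *Aspn* lie below its WT points, which nearly coincide, and *Lum* sits at 0 in every library.

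The class I genes were followed first. *Bgn* (chrX:73483602-73495933 on GRCm38, plus strand) encodes a proteoglycan with chondroitin or dermatan sulfate chains that binds collagen and TGF-β. It was at 771 FPKM in WT 1 and 1032 in WT 2, and 891 in TG 1 and 676 in TG 2, from 16606 to 34370 reads. The genotypes overlapped, and TG 1 lay between the WT libraries. Mean levels were 902 ± 185 FPKM in WT and 783 ± 152 in TG (SD, n = 2 each), a difference smaller than the 1.34-fold spread between the WT libraries. The log2 fold change was −0.20 ± 0.22 (SE; limma, adjusted p = 0.674), and it came to 0.0085 without WT 2, so its sign rested on that library. The 3 tested genes whose levels over the 4 libraries were most like those of *Bgn*, by the distance between centred log2(FPKM + 0.5) values, were *Ctc1* (0.052), *Spast* (0.053) and *Xpo7* (0.060).

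*Aspn* (chr13:49544443-49567565, plus strand) encodes asporin, a class I SLRP that is not known to carry the glycosaminoglycan chains of its relatives and that binds collagen and TGF-β. It was at 39.8 FPKM in WT 1 and 40.9 in WT 2, and at 19.8 in TG 1 and 13.6 in TG 2. These values rest on 829 and 1320 reads in WT and on 520 and 332 reads in TG. Both TG libraries were below both WT libraries, which were close to each other, while TG 1 was 1.45 times TG 2. As 20.3% of all tested genes also had both TG libraries below WT, the separation itself was common. The means were 40.4 ± 0.830 FPKM in WT and 16.7 ± 4.37 in TG (SD, n = 2 each), so the TG mean was 58.6% below the WT mean. The log2 fold change of *Aspn* was −1.27 ± 0.21 (SE), past the fold minimum, and its adjusted p of 0.0102 (limma, Benjamini-Hochberg) missed the threshold. By p-value it ranked 127 of the 11524 tested genes, of which 124 were called in either direction.

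The position of *Aspn* at the threshold moved with the settings. On the recovered reads, voom gave a log2 fold change of −1.36 and an adjusted p of 9.96e-05, a call. Over 15 alternatives *Aspn* was lower in TG each time, with log2 fold changes from −1.53 to −1.01 and adjusted p from 9.96e-05 to 0.140 (limma and its voom), and it was called in 8 of them. *Aspn* was called without TG 1 (adjusted p = 0.00522, limma) and not without WT 2 (adjusted p = 0.140, limma). Of the alternatives, the changed filters, the variance setting, the replicate block and the looser p thresholds cannot move the *Aspn* estimate from −1.27. At an adjusted p under 0.05 the main fit passes as it stands, so these calls were fixed in advance. Exons of *Aspn* overlap *Cenpp*, a centromere protein gene on the opposite strand, and whether the counting used strand is not stated. *Cenpp* was at 9.57 and 6.26 FPKM in WT and at 10.6 and 7.79 in TG (log2 fold change 0.21, adjusted p = 0.707, limma), with at most 114 reads in any library. In these bulk libraries, fewer cells that express a gene and less RNA per cell cannot be told apart.

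Markers of other cell types were summed to set beside the levels of *Aspn*. The 5 smooth muscle markers were each detected in 1 library or more, with *Myh11* and *Des* near 0 in every library, and summed to 8652 to 8914 FPKM in WT and 4058 to 4742 in TG, and *Cnn1*, a contractile filament gene, was called lower (log2 fold change −1.78, adjusted p = 0.00114, limma). Of 6 tendon cell markers, 5 were above 0 in some library, and their sum was 59.3 to 68.8 FPKM in WT and 56.6 to 62.2 in TG, with *Kera* at 0 in all libraries. Most of that sum was *Scx* (log2 fold change 0.016), while *Mkx*, the other tested marker of that list, was at 8.55 and 9.02 FPKM in WT and at 3.79 and 3.94 in TG (−1.09, adjusted p = 0.0255, limma). Of 7 cartilage markers, 5 were above 0 in some library, and their sum was 3.39 to 3.83 FPKM in WT and 8.09 to 10.5 in TG, with *Cnmd* and *Epyc* at 0. Within the cartilage list *Sox9*, a transcription factor of cartilage, was called higher, at 1.90 and 2.44 FPKM in WT and 7.11 and 9.05 in TG (log2 fold change 1.68, adjusted p = 0.00671, limma), and it made up the higher sum. The structural gene *Matn3* had the opposite sign, at 0.885 and 0.882 FPKM in WT and 0.439 and 0.189 in TG (−0.78, adjusted p = 0.364, limma), and *Chad* was above 0 in WT 1 alone. Bone cell markers, of which 4 of 6 were above 0 in some library and *Ibsp* and *Bglap* at 0, summed to 7.19 to 8.32 FPKM in WT and 4.97 to 5.43 in TG. Most of that sum was *Runx2*, at 7.14 and 8.14 FPKM in WT and at 4.83 and 5.28 in TG (−0.55, adjusted p = 0.212, limma). Schwann cell markers, of which 3 of 4 were above 0 in some library and *Sox10* at 0, summed to 0.0545 to 0.0714 FPKM in WT and 0.684 to 0.689 in TG. Of these 4, 0 reached the minimum mean FPKM for the test. The sums of blood and immune cell markers and of fat cell markers overlapped between genotypes. The part of these differences in the levels of *Aspn* or any other SLRP was not tested.

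*Dcn* (chr10:97479609-97518143, plus strand), the third class I gene, was at 0 FPKM in WT 1 and WT 2, 0.0429 in TG 1 and 0.878 in TG 2. These are 0, 0, 1 and 19 reads, so nearly all *Dcn* reads came from TG 2, where the 95% Poisson interval ran from 11.4 to 29.7 reads. For a count of 0 the upper end of the same interval is 3.69 reads. The limit used for a count of 0 was the lower value of 3 reads, which is 0.162 FPKM in WT 1 and 0.105 in WT 2. The single read of TG 1 was under the same limit of 0.129 FPKM. *Dcn* was not tested, because its mean of 0.230 FPKM was below the minimum. Poisson intervals and these limits cover counting error only.

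**Figure D2:**
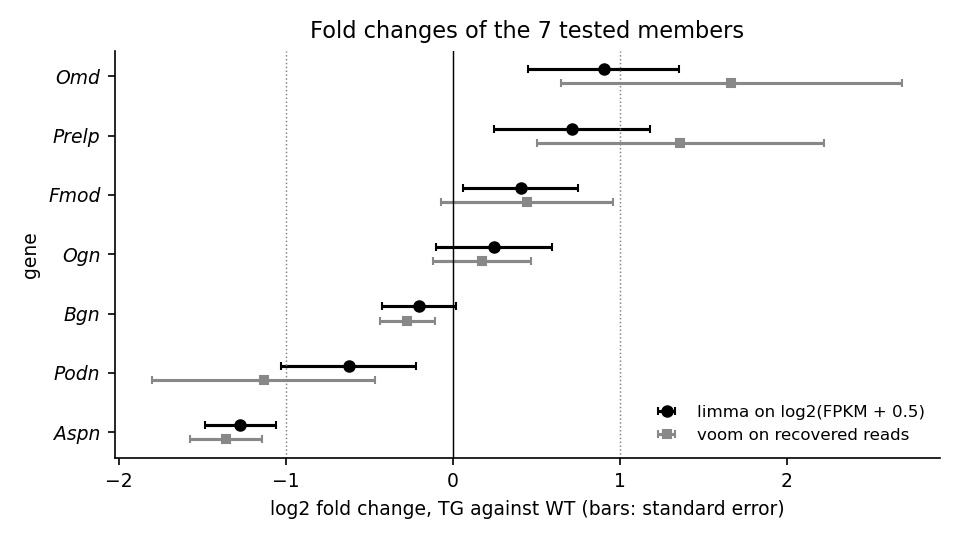
Log2 fold change of TG against WT for the 7 tested SLRPs, by limma on log2(FPKM + 0.5) (black circles) and by voom on the recovered reads (grey squares), with bars for the standard error and dotted lines at a log2 fold change of 1 in either direction. *Aspn* is the gene whose estimate lies beyond −1 by both methods, and the bars of *Omd*, *Prelp* and *Podn*, which rest on few reads, are the widest.

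Class II holds the SLRPs best known for keratan sulfate chains. Fibromodulin (*Fmod*, chr1:134037254-134048277, plus strand), which binds type I collagen and takes part in fibril growth, was at 0.959 FPKM in WT 1 and 1.31 in WT 2, and 1.64 in TG 1 and 1.67 in TG 2. Both TG libraries were above WT, as for 30.2% of all tested genes, and the TG libraries nearly coincided. From 27 to 58 reads per library, the log2 fold change of *Fmod* was 0.41 ± 0.34 (SE; limma, adjusted p = 0.573), and the difference did not pass the test.

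*Prelp* (chr1:133910304-133921414, minus strand) encodes a heparin- and collagen-binding SLRP. It was at 0.122 FPKM in WT 1 and 0.475 in WT 2, and 0.631 in TG 1 and 0.942 in TG 2, from 4, 24, 26 and 36 reads. TG was above WT in both libraries, and the WT libraries themselves differed 3.88-fold. The log2 fold change was 0.71 ± 0.47 (SE; limma, adjusted p = 0.446). Osteomodulin (*Omd*, chr13:49582462-49592822, plus strand), known from mineralized tissue, was at 0.280 FPKM in WT 1 and 0.253 in WT 2, and 1.33 in TG 1 and 0.622 in TG 2, from 5, 7, 30 and 13 reads. Both TG libraries lay above both WT libraries, and TG 1 was 2.14 times TG 2. The log2 fold change of *Omd* was 0.90 ± 0.45 (SE; limma, adjusted p = 0.308), and voom gave 1.67 (adjusted p = 0.369). *Omd* and *Prelp* had WT means of 0.266 and 0.299 FPKM and passed the minimum through TG, so their higher level in TG is in part set by the filter. Exons of *Prelp* overlap those of *Gm15851* on the other strand.

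*Lum* (chr10:97565128-97572703, plus strand), the fourth class II gene, was at 0 FPKM in all 4 libraries. By the limit of 3 reads, these depths allow up to 0.138 FPKM in WT 1 and 0.0891 in WT 2, and 0.109 in TG 1 and 0.118 in TG 2. *Lum* lies 47.0 kb from *Dcn* on Chr 10, with *Kera* 34.2 kb further and *Epyc* 30.4 kb beyond *Kera*. Keratocan and epiphycan, encoded by the last 2, are SLRPs of cornea and of cartilage. Both were at 0 in all 4 libraries. Within 500 kb of this locus 7 other genes were listed, *Kera* and *Epyc* among them, and 0 of them had a mean FPKM above the minimum. The reads in *Dcn* of TG 2 were therefore the only signal above the limits in that stretch.

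Osteoglycin (*Ogn*, chr13:49608046-49624501, plus strand), a class III gene also called mimecan, was at 8.80 FPKM in WT 1 and 12.3 in WT 2, and 19.3 in TG 1 and 8.01 in TG 2, from 204 to 563 reads. The highest and the lowest value were both in TG, so the genotypes overlapped. The means were 10.6 ± 2.50 FPKM in WT and 13.7 ± 7.97 in TG (SD, n = 2 each), and the log2 fold change was 0.25 ± 0.35 (SE; limma, adjusted p = 0.749). TG 1 set the direction of *Ogn*, since without it the log2 fold change was −0.36 (adjusted p = 0.650, limma).

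Podocan (*Podn*, chr4:108014791-108096445, minus strand), the class V gene, is known in vessel wall and kidney. *Podn* was at 0.923 FPKM in WT 1 and 1.21 in WT 2, and 0.632 in TG 1 and 0.409 in TG 2, from 29, 59, 25 and 15 reads. Like *Aspn*, it had both TG libraries below both WT libraries. The log2 fold change was −0.62 ± 0.41 (SE; limma, adjusted p = 0.445), and voom gave −1.13 (adjusted p = 0.349). The difference did not pass the test by either method.

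Over the 7 tested SLRPs, 2 had both TG libraries below WT, 3 had both above and 2 overlapped, while 50.5% of all tested genes had no overlap in either direction. *Omd* and *Prelp*, which passed the minimum through TG, are among the 3 above. The median log2 fold change was 0.25 over the 7 and −0.20 over the 5 whose means reached the minimum in both genotypes, against 0.071 over all tested genes, so its sign depended on the filter.

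The 3 SLRPs of Chr 13 lie in a row in the same orientation, *Aspn*, then *Omd* 14.9 kb on, then *Ogn* another 15.2 kb on, with *Ecm2* 11.7 kb before *Aspn* and *Cenpp* spanning all of them on the other strand. Their starts are shown because these neighbours had different levels, beside *Bgn* as the highest member. The lines give the 250 bases before the RefSeq start (GRCm38.p6, all plus strand, 5′ to 3′) at chr13:49544193-49544442, chr13:49582212-49582461, chr13:49607765-49608014 and chrX:73483351-73483600, with motif matches on either strand in capitals.
Aspn: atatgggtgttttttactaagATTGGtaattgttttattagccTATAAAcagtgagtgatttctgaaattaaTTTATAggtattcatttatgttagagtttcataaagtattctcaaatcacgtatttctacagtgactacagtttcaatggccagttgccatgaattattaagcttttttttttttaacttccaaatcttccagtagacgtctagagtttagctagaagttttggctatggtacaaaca
Omd: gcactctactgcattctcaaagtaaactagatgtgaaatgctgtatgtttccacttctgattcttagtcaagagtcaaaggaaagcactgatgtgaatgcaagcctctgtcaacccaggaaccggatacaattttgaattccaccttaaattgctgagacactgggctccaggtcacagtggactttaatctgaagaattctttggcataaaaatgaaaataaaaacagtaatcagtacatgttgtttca
Ogn: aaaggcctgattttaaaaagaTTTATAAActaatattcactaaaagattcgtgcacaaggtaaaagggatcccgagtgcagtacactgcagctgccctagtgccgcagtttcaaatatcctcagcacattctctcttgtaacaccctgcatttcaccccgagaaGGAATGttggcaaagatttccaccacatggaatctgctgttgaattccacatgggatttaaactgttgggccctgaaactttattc
Bgn: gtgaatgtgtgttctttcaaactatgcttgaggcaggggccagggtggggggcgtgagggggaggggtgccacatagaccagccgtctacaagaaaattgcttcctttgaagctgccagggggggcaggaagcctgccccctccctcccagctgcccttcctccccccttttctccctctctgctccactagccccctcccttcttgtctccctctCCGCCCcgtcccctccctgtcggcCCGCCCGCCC

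The windows were searched on both strands for 5 motifs, and the share of all 32841 RefSeq windows of this length that hold each was counted. The TATA box TATAAA was in 12.4% of them, the box CCAAT in 33.9% and the GC box GGGCGG in 32.7%. The AP-1 site TGANTCA was in 6.75% and the TEAD site GGAATG in 12.6%. RefSeq windows matched 7 of the 9 SLRPs, and *Podn* had 2 of them. *Aspn* held TATAAA at 207 bases before the start and, on the opposite strand, at 178, with CCAAT on the opposite strand at 229. In *Ogn* the matches to TATAAA at 229 and 227 are overlapping readings of 1 stretch on either strand, and GGAATG lay at 86. The GENCODE gene of *Ogn* starts further on, at chr13:49608046. Bases just past its RefSeq start were not found in its GENCODE transcripts, so its distances hold for the RefSeq start only. *Bgn* held GGGCGG on the opposite strand at 34, 10 and 6 bases before the start, the last pair overlapping, and the *Omd* window had none of these letters. *Prelp* held CCAAT at 15 and 1 window of *Podn* held GGGCGG at 202 and 70. The TGANTCA letters were in 0 of the 8 windows.

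Base composition also differed among the windows. GC content was 38.4% in *Omd* and 42.0% in *Ogn* and lower still in *Aspn*, against 64.4% in *Bgn* and a median of 52.4% over all windows. *Fmod* and *Prelp* were at 51.2% and 55.6%, and the windows of *Podn* at 78.0% and 64.0%. *Aspn* thus stood at a percentile of 1.45 of all windows and *Bgn* at one of 81.6. These are descriptions of the letters and carry no test.

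**Figure D3:**
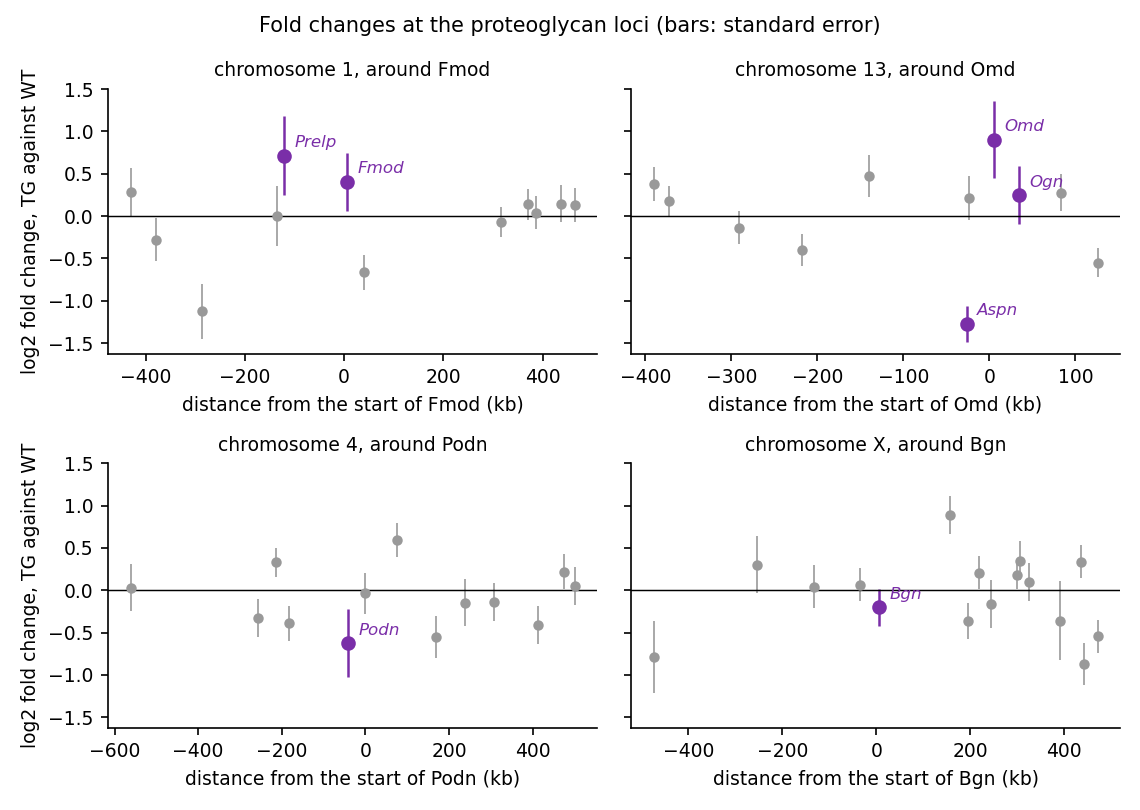
Log2 fold change of TG against WT (with standard error) for tested genes within 500 kb of a SLRP on 4 chromosomes, against the distance in kb of each gene's midpoint from the start of the named SLRP (purple, SLRPs; grey, neighbours). *Aspn* lies below −1 beside *Omd* and *Ogn* above 0, with the bar of *Ogn* crossing 0, and on Chr 1 a grey neighbour, *Atp2b4*, also lies below −1.

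The genes around the SLRPs were then compared, since the study asks how far changes on Chr 1 cluster near the transgene. Within 500 kb of the 5 loci, 92 other genes were listed and 45 tested. limma called 0 of the 45 in either direction, where 1.08% of all tested genes were called. Among the 45, 8 were at an unadjusted p under 0.05, against 19.6% of all tested genes. voom called 1 lower, against 1.31% of all tested genes. The median log2 fold change of the 45 was 0.040, against 0.071 over all tested genes. By locus the median was 0.019 on Chr 1 (10 tested), −0.087 on Chr 4 (12 tested), 0.19 on Chr 13 (8 tested) and 0.065 on Chr X (15 tested).

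On Chr 1, *Prelp* lies 2.31 kb from *Optc*, an SLRP relative first known from the eye, and 116 kb from *Fmod*. *Optc* was at 1.98 and 1.17 FPKM in WT and at 1.31 and 1.79 in TG, with overlapping genotypes (adjusted p = 0.999, limma). *Lmod1*, a contractile cell gene 1.28 Mb beyond *Fmod*, was at 45.8 and 45.1 FPKM in WT and at 14.7 and 15.1 in TG and was called lower (log2 fold change −1.57, adjusted p = 0.00120, limma). *Tnnt2*, a troponin gene 1.79 Mb from *Fmod*, was also called lower, from 51.2 and 58.6 FPKM to 23.2 and 25.0 (log2 fold change −1.17, adjusted p = 0.00665, limma). The study had already reported *Lmod1* and *Tnnt2* as repressed from these same libraries, so their calls add no separate support. *Fmod* and *Prelp*, nearest to them among the SLRPs, were not called. *Atp2b4*, a calcium pump gene 109 kb from *Prelp* and named after its values were seen, was at 3.36 and 3.67 FPKM in WT and at 1.82 and 0.955 in TG (log2 fold change −1.13, adjusted p = 0.0869, limma), and it was the neighbour that voom called. *Ube2t*, 914 kb from *Fmod* and so outside the 500 kb window, had the opposite sign and was also named after its values were seen. Its levels were 10.7 and 8.82 FPKM in WT and 24.2 and 19.3 in TG (log2 fold change 1.11, adjusted p = 0.0170, limma). *Bgn* lies 29.96 Mb from the endogenous *Xist* on Chr X.

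The chains of SLRPs are built by enzymes of the Golgi, and these were counted next. Of 19 tested genes for chondroitin and dermatan sulfate synthesis, limma called 0, with 5 at an unadjusted p under 0.05, and voom called 2 lower. The shares over all tested genes, here and for the lists below, were 1.08% called by limma and 19.6% at an unadjusted p under 0.05. By voom 1.31% were called lower and 1.07% higher. The most abundant were *Chst12*, a sulfotransferase, *B3gat3*, which finishes the linker to the core protein, and *Fam20b*, which phosphorylates that linker. *Chst12* was at 43.3, 59.8, 43.1 and 31.3 FPKM in WT 1, WT 2, TG 1 and TG 2 (log2 fold change −0.47, adjusted p = 0.282, limma). *B3gat3* was at 32.4, 18.7, 34.2 and 36.6 FPKM (0.52, adjusted p = 0.280, limma), and *Fam20b* at 22.1, 20.4, 22.3 and 19.3. The genotypes of *Fam20b* overlapped. *Chsy3*, a chondroitin synthase, and *Chst7*, a chondroitin 6-sulfotransferase, are named after their values were seen, as the pair with an adjusted p under 0.05. *Chsy3* passed the minimum mean FPKM through WT and *Chst7* through TG, so the direction of each is in part set by the filter. *Chsy3* was at 2.55 and 2.53 FPKM in WT and at 0.247 and 0 in TG (log2 fold change −2.31, adjusted p = 0.0122, limma). *Chst7* had the opposite sign, with 0 and 0.434 FPKM in WT and 2.01 and 2.47 in TG (log2 fold change 2.00, adjusted p = 0.0298, limma).

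Of 8 tested genes for keratan sulfate synthesis limma called 0, where 1.08% of all tested genes were called. At an unadjusted p under 0.05 stood 1 of the 8, against 19.6%, and voom called 1 lower, against 1.31%. *St3gal2*, *B4galt1* and *St3gal3*, the most abundant, had log2 fold changes of 0.10, −0.18 and −0.12. In the supply of sugar nucleotides and sulfate, 13 genes were tested and 1 was called, *Ugdh*, which makes the UDP-glucuronic acid used in chondroitin chains. Of all tested genes, limma called 0.607% higher. *Ugdh* was at 25.3 and 24.8 FPKM in WT and at 56.2 and 54.9 in TG, with both pairs close together. It was higher in TG by a log2 fold change of 1.14 ± 0.17 (SE; limma, adjusted p = 0.00665), and leaving out any 1 library took away the call. *Papss1*, which activates sulfate, and *Slc35b2*, which carries it into the Golgi, had log2 fold changes of −0.13 and 0.39 (adjusted p = 0.769 and 0.389, limma).

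The collagens that SLRPs bind were counted beside them. Of 11 tested collagen genes, 9 had both TG libraries below WT, against 20.3% of all tested genes, and 0 had both above, against 30.2%. At an unadjusted p under 0.05 stood 6, against 19.6%. The median log2 fold change of the 11 was −0.44, against 0.071 over all tested genes. limma called 1 of the 11, *Col12a1*, whose product sits on the surface of type I fibrils. Of all tested genes, 0.469% were called lower. *Col12a1* was at 84.1 and 94.2 FPKM in WT and at 28.7 and 32.8 in TG (log2 fold change −1.52 ± 0.18, SE; adjusted p = 0.00134, limma), and without WT 1 or without WT 2 no collagen was called. *Col1a1*, the main fibril chain, was at 867 and 789 FPKM in WT and at 407 and 539 in TG (−0.82, adjusted p = 0.0491, limma). *Col1a2* and *Col5a2* had log2 fold changes of −0.64 and −0.44 (adjusted p = 0.143 and 0.194, limma). *Col5a1*, named after its values were seen, was at 130 and 138 FPKM in WT and at 64.65 and 71.7 in TG. Its log2 fold change was −0.97 (adjusted p = 0.0127, limma), and voom called it lower.

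**Figure D4:**
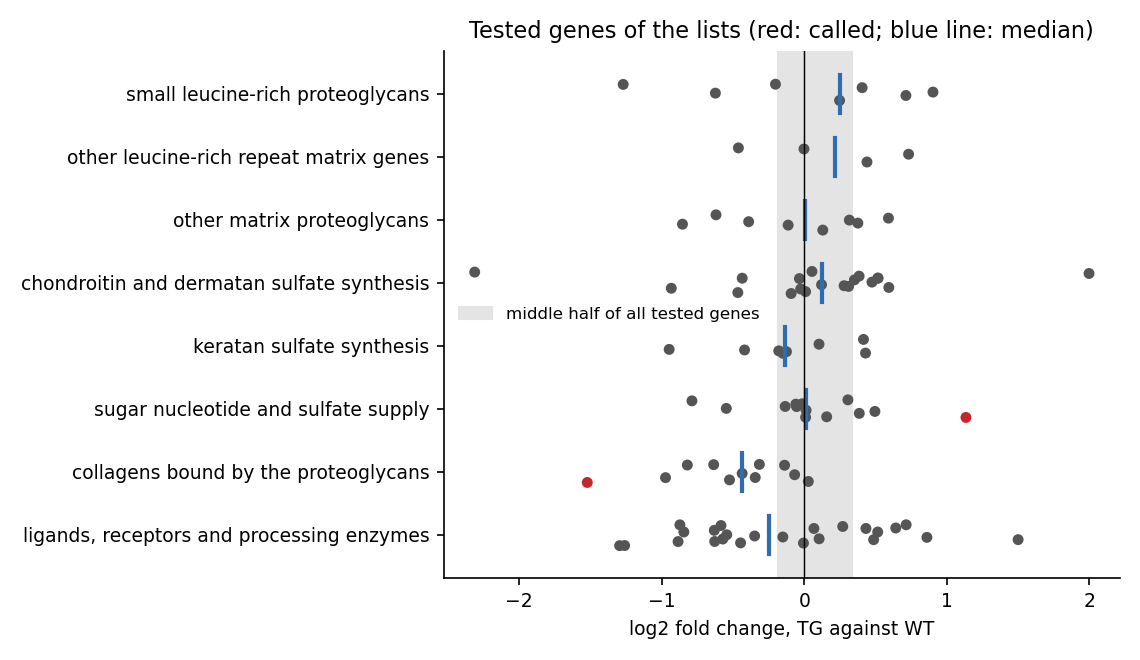
Log2 fold change of TG against WT for each tested gene of the SLRPs and of 7 related lists (points; red, called; blue line, median), with the middle part of all tested genes from the lower quartile of −0.18 to the upper quartile of 0.34, shaded in grey. The collagen points lie mostly to the left of 0, the SLRPs lie on both sides, and the called genes are *Ugdh* and *Col12a1*.

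Ligands held by SLRPs, their receptors and the enzymes that process them made up the last of the pathway lists. Of 24 tested, limma called 0, with 14 at an unadjusted p under 0.05 (19.6% of all tested genes), and voom called 2 lower. *Pcolce*, an enhancer of procollagen processing, was at 470 and 451 FPKM in WT and at 649 and 643 in TG (log2 fold change 0.49, adjusted p = 0.159, limma). *Fn1*, fibronectin, was at 569 and 704 FPKM in WT and at 267 and 447 in TG (−0.87, adjusted p = 0.0803, limma). *Tgfb3* was at 295 and 331 FPKM in WT and at 184 and 223 in TG (−0.63, adjusted p = 0.0874, limma). The 4 genes with an adjusted p under 0.05 are named after their values were seen, and 3 of them were lower in TG. Their log2 fold changes were −1.26 for *Tll1*, a procollagen protease (adjusted p = 0.0137, limma), −1.30 for *Tgfb2* (adjusted p = 0.0270, limma) and −0.89 for *Ccn4*, a matricellular gene (adjusted p = 0.0253, limma). *Tgfb1* was the gene higher in TG (0.86, adjusted p = 0.0487, limma). Both TG libraries were below WT in 12 of the 24 genes and above in 7, against 20.3% and 30.2% of all tested genes.

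Other matrix genes of related structure were counted last. Of 11 other leucine-rich repeat matrix genes 4 were tested and limma called 0, with 1 at an unadjusted p under 0.05 and 0 called by voom. The share of all tested genes at that unadjusted p was 19.6%. *Podnl1*, a relative of podocan, was at 52.3, 35.1, 29.2 and 32.9 FPKM in WT 1, WT 2, TG 1 and TG 2, well above *Podn* in every library. *Lrrc17* was at 6.84, 7.54, 13.8 and 10.9 FPKM, and *Tsku*, which encodes tsukushi, was at 3.39, 4.90, 5.50 and 5.93. Of 18 genes in the list of other matrix proteoglycans 8 were tested and limma called 0. At an unadjusted p under 0.05 stood 2 of the 8, against the same 19.6%, and voom called 0. *Smoc2*, listed there and encoding a calcium-binding matrix protein, was at 76.6 and 61.4 FPKM in WT and at 40.4 and 35.3 in TG (log2 fold change −0.85, adjusted p = 0.0318, limma). Perlecan (*Hspg2*) and versican (*Vcan*), a basement membrane and a hyaluronan-binding proteoglycan, had log2 fold changes of −0.39 and 0.32 (adjusted p = 0.369 and 0.404, limma).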

How the data were processed

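Tail tip fibroblasts of 2 genotypes were profiled by polyA RNA-seq in 2 libraries each, with random-primed, strand-marked cDNA and paired-end reads. The authors aligned the reads to mm10 (GRCm38) with Rsubread, counted them per gene with its feature counting function and converted the counts to FPKM, and the deposited matrix holds these FPKM values, 1 column per library. They tested differential expression with DESeq, results not used here.

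Libraries were grouped by their labels. TG was compared with WT in R 4.3.3 with limma 3.58.1, as a linear model of log2(FPKM + 0.5) whose variances were moderated toward a trend in expression. Of the listed genes, 11524 reached a mean of 0.5 FPKM and entered the fit, and Benjamini-Hochberg adjustment ran over all of them. No permutation test was used, since with this design its exact p cannot go below 0.333.

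Whole reads were worked out from the ratios of FPKM values between libraries. For 99.2% of the 15530 genes above 0, the reads came within 0.05 of whole numbers in every library, with a common factor set from gene length for 836 genes. The reads on genes made up between 98.86% and 98.95% of the library totals. limma's voom was run on these reads with median-ratio size factors of 0.802 to 1.235. The limma and voom fits were also run on simulated reads, with changes placed only in genes above the levels of *Fmod*, *Podn*, *Omd* and *Prelp*. The step that works out reads was not tested on simulated data.

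Gene positions came from GENCODE and start windows from RefSeq, both on GRCm38, matched by symbol, and 1 list gene was matched by an older symbol. Tables were made with pandas 2.3.3 and intervals with scipy 1.17.1 in Python 3.11.15.

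The SLRPs and all lists were chosen with earlier results of these data known. The genes named are the 9 SLRPs, the called genes and the 3 highest by mean FPKM of each list, *Lmod1*, *Tnnt2*, called neighbours and the 3 genes most like *Bgn*. Marker genes, *Xist* and the genes beside the SLRPs are named for their role or position, and others as chosen after their values were seen. Alternatives were quantile normalization, upper-quartile scaling, pseudocounts of 1 and 0.1, voom, a fit to all genes above 0 or to those with a mean of 1 FPKM or more, variances with no trend, a block for the replicate number, each library left out, an adjusted p under 0.05 with and without the fold minimum and neighbours within 1000 kb.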

Additional observations from a re-analysis of the deposited data

How the results depend on the processing

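Each genotype has 2 libraries, and *Omd*, *Prelp*, *Podn* and *Fmod* rest on 59 reads or fewer in each library. Over the alternatives, 0 SLRPs were called higher in each, and the number called lower went from 0 to 1, which was *Aspn*, with a pseudocount of 1, a mean FPKM of at least 1, upper-quartile scaling, quantile normalization, voom and an adjusted p under 0.05 with and without the fold minimum. Leaving out 1 library gave 0 to 1 SLRPs called lower, the call coming without TG 1. The log2 fold change of *Bgn* ran from −0.41 to 0.0085 with 1 library left out and turned sign without WT 2, and that of *Ogn* ran from −0.36 to 0.86 and turned without TG 1. *Fmod*, *Prelp*, *Aspn*, *Omd* and *Podn* kept their sign in the alternatives in which they were tested. The changed filters, the variance setting, the replicate block and the looser p thresholds cannot change an estimate, so they could not turn a sign. With 1 library left out, the log2 fold change of *Prelp* ran from 0.39 (without WT 1) to 1.04, of *Fmod* from 0.25 (without WT 1) to 0.56, of *Omd* from 0.55 (without TG 1) to 1.26, of *Podn* from −0.78 to −0.46 and of *Aspn* from −1.53 to −1.01. Scaling moved the median of all genes by less than 0.1.

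Over all tested genes, 70 were called higher and 54 lower. With all genes above 0 the counts were 0 and 1, without a variance trend 3 and 6, with voom 123 and 151, at an adjusted p under 0.05 229 and 121, and without the fold minimum 298 and 178. Without 1 library they were as low as 0 and 1, reached without WT 1, and 7 and 2 without WT 2, and as high as 66 and 47. A lone library was assumed to vary like the others.

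Of the lists, *Ugdh* and *Col12a1* were each the 1 gene called. Sugar nucleotide and sulfate supply had 0 called with all genes above 0, without a variance trend, with quantile normalization and without any 1 library (0 to 0). Collagens had 0 called with all genes above 0, without a variance trend, and 0 to 1 without 1 library (0 without WT 1 or WT 2), 2 with voom and 3 without the fold minimum. Chondroitin and dermatan sulfate synthesis had 1 called with quantile normalization, 0 to 1 without 1 library (1 without TG 1), 2 with voom and 2 at an adjusted p under 0.05 with or without the fold minimum. Keratan sulfate synthesis had 1 called with voom, and other matrix proteoglycans had 1 without the fold minimum. Ligands, receptors and processing enzymes had 2 with voom, 2 at an adjusted p under 0.05 and 4 without the fold minimum. Neighbours of the SLRPs had 1 with voom. The causes were not tested.

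What the replicate numbers of WT and TG stand for is not stated. Deviations of same-numbered libraries had a correlation of −0.028. With 2 libraries per genotype, this low value cannot tell if same-numbered libraries were handled together. With the replicate number as a block, 12 genes were called higher and 8 lower, sugar nucleotide and sulfate supply and the collagens had 0 called, and *Aspn* had an adjusted p of 0.0468 (limma).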
